A study of Mus musculus with 11 samples.

Results

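A set of 10 genes of adult hippocampal neurogenesis were followed in the hippocampus of mice that carry a deletion at Scn1a, the gene of the sodium channel alpha subunit NaV1.1. The 10 genes were chosen by symbol for their known roles, with earlier results of these data known. All 10 were found among the 24391 gene symbols of the heterozygous count table and the 24015 of the homozygous one. All 10 passed the filter on low values, which kept 14630 genes in the heterozygous round and 14838 in the homozygous round. Of these, 5 mark stem and progenitor cells (Sox2, Nes, Mki67, Top2a and Eomes), and the other 5 mark neuroblasts and immature neurons (Neurod1, Igfbpl1, Dcx, Sox11 and Sox4).

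The deletion was made with Cas9 in C57BL/6N mice and removes the non-coding interval around 1b, a second promoter region of Scn1a, in every cell of the body. Poly(A) RNA from the hippocampus of one hemisphere was sequenced at postnatal day 32, an age the sample labels give only as adult, in 11 mice over 2 rounds of sequencing. The homozygous round holds 2 WT mice, both female, and 2 1b-/- mice, of which replicate 1 is male and replicate 2 female, read as single short ends. The heterozygous round holds 3 male WT mice and 4 1b+/- mice, of which replicates 1 to 3 are male and replicate 4 female, read as longer paired ends. Many 1b-/- pups die before weaning, so the 1b-/- mice sampled are survivors. Library totals ran from 20667122 to 36145161 counts. Each mouse is 1 library, so the p-values measure the spread between these few mice, and read type and round cannot be told apart.

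In the adult dentate gyrus, radial glia-like stem cells divide slowly and give rise to intermediate progenitors, which in turn yield neuroblasts and then immature granule neurons. Each step has its own genes. SOX2 and nestin mark the stem cells, Ki-67 and topoisomerase II alpha mark any dividing cell, EOMES (TBR2) marks intermediate progenitors, NEUROD1 drives the commitment to a neuronal fate, and doublecortin, SOX11 and SOX4 follow in the young neuron. None of these genes belongs to 1 stage alone: Sox2 is also expressed in astrocytes, Neurod1 is kept in mature granule cells, and Eomes is also found in Cajal-Retzius cells. In RNA from whole tissue, fewer cells of a type and less RNA per cell cannot be told apart.

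The promoters of 3 of the genes are shown first, because for these 3 members the change in 1b-/- mice differed from that in 1b+/- mice in the test described further on, which 27.3% of all genes also passed. Each sequence is the RefSeq window of 300 bases, from 250 before to 50 after the annotated start, read along the gene's own strand in GRCm38.p6. RefSeq windows were found for 9 of the 10 members, all except Igfbpl1. Capitals mark every match, on either strand, to the CCAAT box (CCAAT), the cell cycle homology region element known as CHR (TTTGAA) and the E-boxes CAGATG and CAGCTG. The Mki67 window is chr7:135716330-135716629 on the minus strand, the Top2a window is chr11:99024140-99024439 on the minus strand, and the Neurod1 window is chr2:79456587-79456886 on the minus strand.
Mki67: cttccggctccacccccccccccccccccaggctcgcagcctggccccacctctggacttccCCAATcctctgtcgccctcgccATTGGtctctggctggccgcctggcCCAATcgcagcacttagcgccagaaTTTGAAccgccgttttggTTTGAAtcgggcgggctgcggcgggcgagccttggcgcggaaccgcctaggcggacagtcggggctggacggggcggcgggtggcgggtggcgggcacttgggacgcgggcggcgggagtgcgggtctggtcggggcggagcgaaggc
Top2a: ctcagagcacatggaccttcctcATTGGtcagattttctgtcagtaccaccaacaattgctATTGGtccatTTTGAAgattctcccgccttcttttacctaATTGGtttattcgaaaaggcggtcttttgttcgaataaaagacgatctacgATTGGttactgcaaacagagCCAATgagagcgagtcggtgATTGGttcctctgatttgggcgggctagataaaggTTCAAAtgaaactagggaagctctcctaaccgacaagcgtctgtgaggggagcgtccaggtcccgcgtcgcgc
Neurod1: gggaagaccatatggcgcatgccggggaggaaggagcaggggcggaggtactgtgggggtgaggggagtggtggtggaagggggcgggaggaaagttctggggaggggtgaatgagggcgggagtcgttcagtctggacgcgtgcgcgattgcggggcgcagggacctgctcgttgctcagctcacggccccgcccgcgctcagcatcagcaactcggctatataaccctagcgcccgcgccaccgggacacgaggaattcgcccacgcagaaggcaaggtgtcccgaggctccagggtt

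CCAAT boxes and CHR elements are known from the promoters of genes that peak in late cell cycle. The Mki67 window holds 3 CCAAT boxes and 2 CHR elements, and the Top2a window holds 6 and 2. Of all 32851 RefSeq windows of this length, 37.4% hold at least 1 CCAAT box and 17.9% at least 1 TTTGAA on either strand. The Neurod1 window holds no match to any of the 4 motifs, and neither does that of Nes. An E-box CAGCTG, present in 16.3% of all windows, was found among the members in the windows of Sox11 and Sox4, and CAGATG, present in 17.2%, in none. A match is a description of letters, and no match says only that these letters are absent from the window.

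Levels are given as CPM, the reads of a gene relative to the total of its library, scaled with trimmed mean of M-values (TMM) factors within a round. Scn1a itself, the gene of the deletion, was looked at first. It stood at 134 and 173 CPM in the homozygous-round WT mice and at 26.3 and 16.7 CPM in the 1b-/- mice, and edgeR's quasi-likelihood test gave a log2 fold change of -2.83 with an adjusted p of 0.0211. In the heterozygous round it ran from 113 to 171 CPM in WT and from 83.3 to 119 CPM in 1b+/- mice, with a log2 fold change of -0.47 and an edgeR adjusted p of 0.303. There 1b+/- replicate 4 was above WT replicate 2, so Scn1a did not separate every library of that round by its label.

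The WT libraries of the homozygous round stood apart from the other 9 libraries in their regional markers. The summed level of 12 striatal markers was 8206 and 3355 CPM in those WT mice and 242.8 and 334.3 CPM in the 1b-/- mice. In the heterozygous round it was 235 to 408.9 CPM in WT and 192.7 to 238.9 CPM in 1b+/- mice. The most abundant striatal markers over all 11 libraries, Penk (proenkephalin) and Pde10a (a striatal phosphodiesterase), stood at 1501 ± 861 (SD, n = 2) and 962 ± 547 CPM in the homozygous-round WT mice. They stood at 54.0 ± 24.2 and 67.9 ± 0.859 CPM in the 1b-/- mice. The summed level of 7 basal forebrain cholinergic markers was 117.5 and 51.27 CPM in the same WT mice and 1.817 and 4.135 CPM in the 1b-/- mice. The 11 markers of dentate granule cells, the neurons that adult neurogenesis produces, went the other way, with sums of 205.6 and 233.4 CPM in these WT mice, 385.5 and 399.2 CPM in the 1b-/- mice, and 393.1 to 492.8 CPM in the heterozygous round. Of its most abundant genes over all 11 libraries, C1ql3 stood at 19.0 ± 14.4 (SD, n = 2) and 55.7 ± 5.73 CPM in these WT and 1b-/- mice, and Calb1, which many other neurons express, at 135 ± 6.93 and 95.8 ± 13.3 CPM. None of the 11 was at 0 in any library, but in their striatal, cholinergic and summed dentate markers the WT libraries of the homozygous round go against their hippocampus label. Choroid plexus lies in the ventricle beside the hippocampus, and its 7 markers summed to 54.12 and 3427 CPM in the homozygous-round WT mice, to 61.69 and 13670 CPM in 1b-/- replicates 1 and 2, and to between 61.47 and 2664 CPM in the heterozygous round. The part of these differences in the values of the 10 genes was not tested, and since both WT libraries of the homozygous round are affected, no comparison of 1b-/- mice within that round can leave them out.

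**Figure D1:**
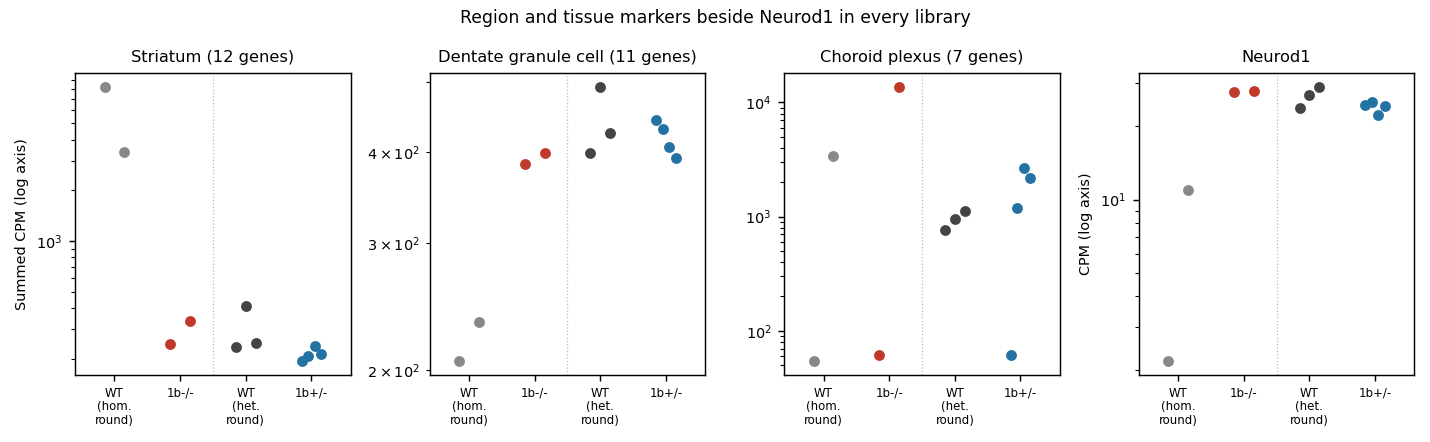
Summed CPM (log axis) of the striatal, dentate granule cell and choroid plexus markers, and CPM of Neurod1 (log axis), 1 point a library, with the homozygous round to the left of the dotted line and the heterozygous round to the right. Both WT libraries of the homozygous round are high for the striatal sum (3355 and 8206 CPM) and low for Neurod1, and the choroid plexus sum differs most between the 1b-/- libraries (61.69 and 13670 CPM).

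Judged by edgeR's quasi-likelihood test, with p-values adjusted by Benjamini-Hochberg over all genes, none of the 10 genes passed an adjusted p of 0.05 in 1b-/- mice, where 3.58% of all genes tested did, and none passed in 1b+/- mice, where 0 of 14630 genes (0%) did. Of the 10, 3 had an unadjusted p under 0.05 in 1b-/- mice (Nes, Top2a and Neurod1), beside 3922 of all 14838 genes, and 1 did in 1b+/- mice (Mki67), beside 1649 of all 14630. Other tools called other numbers. In 1b-/- mice the likelihood ratio test called 1 of the 10 and DESeq2 0, where over all genes they called 1829 and 2111. In 1b+/- mice both called 0 of the 10, where over all genes they called 191 and 247. In 8 of the 10 genes the 1b-/- and WT libraries did not overlap, 5 of them lower and 3 higher in 1b-/- mice, in a round where 59.7% of all genes tested did not overlap. Between 1b+/- and WT mice 1 of the 10 did not overlap, where 10.9% of all genes did not. The median log2 fold change of the 10 was -0.243 in 1b-/- mice, against -0.00125 over all genes tested, and 0.05 in 1b+/- mice, against 0.000735.

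**Figure D2:**
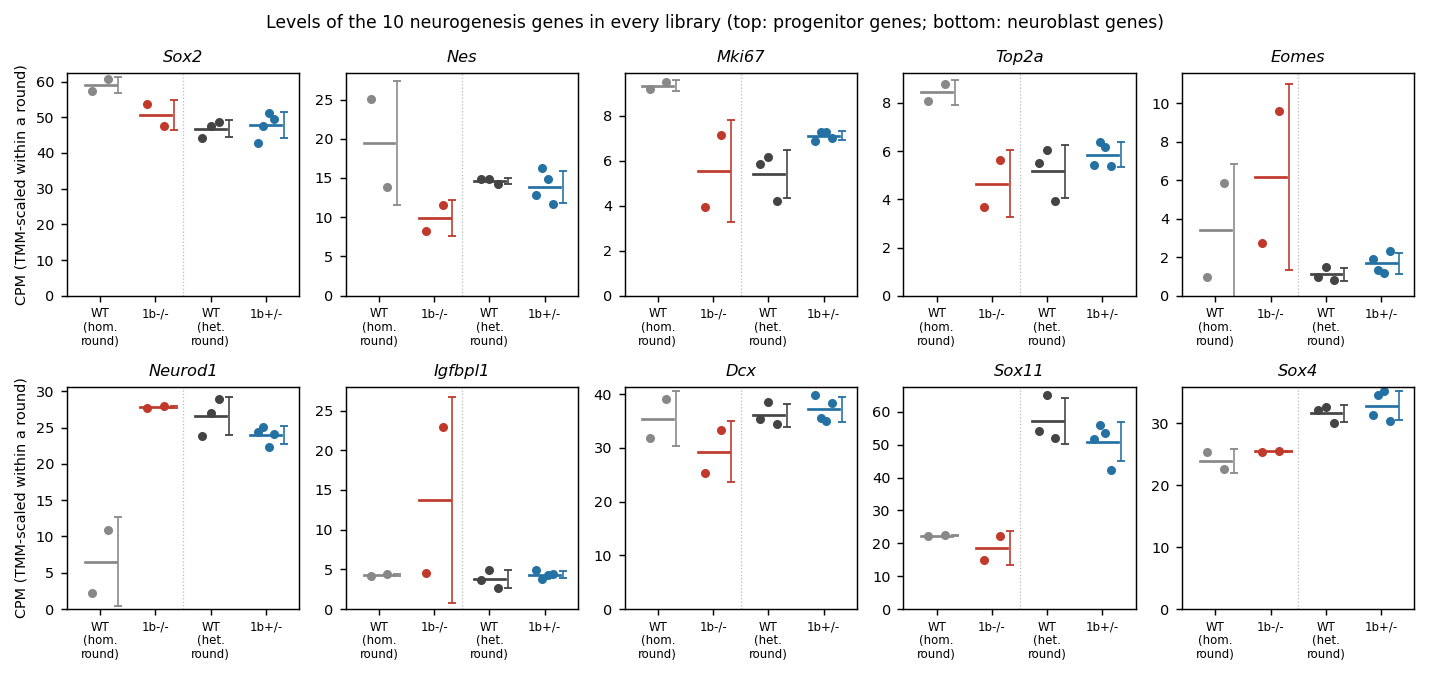
CPM of each of the 10 genes in all 11 libraries, progenitor genes above and neuroblast genes below; points are libraries, horizontal lines are group means and the bars beside them are 1 SD, cut off at 0 where they would go below. Neurod1 is low in both WT libraries of the homozygous round (2.17 and 10.9 CPM) and lies between 22.3 and 29.0 CPM in the other 9 libraries, while Igfbpl1 is high in 1 library, 1b-/- replicate 2.

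Neurod1, the basic helix-loop-helix factor that commits progenitors to a granule neuron fate (chr2:79292678-79296908, minus strand, in mm9), showed the largest difference of the 10 in 1b-/- mice. It stood at 2.17 and 10.9 CPM in the homozygous-round WT mice, from 48 and 233 reads, and at 27.7 and 27.9 CPM in the 1b-/- mice. The genotypes did not overlap, and the WT replicates differed from each other far more than the 1b-/- replicates did. The log2 fold change was 2.09 (SE 0.691, 95% interval 0.34 to 3.84), that is 4.26-fold, with an edgeR adjusted p of 0.143. In an exact two-sided permutation test on log2(CPM + 1), the p was 0.333, the smallest that 2 libraries against 2 can give. In the heterozygous round Neurod1 ran at 23.8, 27.0 and 29.0 CPM in WT and at 24.4, 25.1, 22.3 and 24.1 CPM in 1b+/- replicates 1 to 4. These groups overlapped, and the log2 fold change was -0.15 (SE 0.0739, 95% interval -0.31 to 0.02; edgeR adjusted p = 0.485). The 1b-/- level of Neurod1 thus lay within the range of the 3 WT mice of the heterozygous round, and the WT level of the homozygous round lay outside it, although levels set across rounds also differ in read type. The WT library with the lower Neurod1, replicate 1, was also the one with the higher striatal sum. With 2 libraries this order cannot be tested, and the part of striatal tissue in the Neurod1 value was not tested. Without WT replicate 2 the log2 fold change was 3.68 (edgeR adjusted p = 0.0377), and without WT replicate 1 it was 1.36 (edgeR adjusted p = 0.101). In either case a single WT mouse is left, which the fit assumes to vary like the 1b-/- mice.

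Igfbpl1 encodes an insulin-like growth factor binding protein-like protein enriched in migrating neuroblasts and lies at chr4:45822340-45839795 (mm9, minus strand). It stood at 4.15 and 4.397 CPM in the homozygous-round WT mice and at 4.57 and 22.9 CPM in 1b-/- replicates 1 and 2. The difference rested on 1b-/- replicate 2, since replicate 1 was barely above the WT range. This gave a log2 fold change of 1.68 (SE 0.738, 95% interval -0.18 to 3.55; edgeR adjusted p = 0.222). It became 2.42 without 1b-/- replicate 1 (edgeR adjusted p = 0.00541) and 0.10 without 1b-/- replicate 2 (edgeR adjusted p = 0.935). Each of these fits holds a single 1b-/- mouse, which is assumed to vary like the 2 WT mice. Replicate 2 was the library with the choroid plexus sum of 13670 CPM, and the part of that tissue in the Igfbpl1 value was not tested. Igfbpl1 in the heterozygous round ran at 3.71, 4.91 and 2.64 CPM in WT and at 4.88, 3.81, 4.31 and 4.39 CPM in 1b+/- mice. All 4 of the 1b+/- values lay within the WT range, with a log2 fold change of 0.20 (SE 0.195, edgeR adjusted p = 0.736).

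Dcx encodes doublecortin, the microtubule-binding protein of migrating neuroblasts and the usual marker of adult-born immature neurons (chrX:140290385-140367854, minus strand, in mm9). It stood at 31.8 and 39.1 CPM in the homozygous-round WT mice and at 25.3 and 33.4 CPM in the 1b-/- mice, so the genotypes overlapped. The log2 fold change was -0.27 (SE 0.194, 95% interval -0.76 to 0.22; edgeR adjusted p = 0.413). Dcx in the heterozygous round ran at 35.3, 38.5 and 34.4 CPM in WT and at 39.8, 35.6, 34.9 and 38.4 CPM in 1b+/- mice. The 1b+/- and WT ranges overlapped almost fully, and the log2 fold change of 0.04, whose SE of 0.0624 was the smallest of the 10 in this round, had a 95% interval of -0.10 to 0.18 (edgeR adjusted p = 0.828).

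SOX11 and SOX4 are related SoxC transcription factors that act downstream of neuronal commitment and turn on genes such as Dcx. Sox11 (chr12:28025562-28027574, minus strand, in mm9) stood at 22.3 and 22.4 CPM in the homozygous-round WT mice and at 14.99 and 22.3 CPM in 1b-/- replicates 1 and 2. Replicate 2 was level with the WT mice, and the log2 fold change was -0.26 (SE 0.226, 95% interval -0.84 to 0.31; edgeR adjusted p = 0.498). For the heterozygous round the Sox11 values were 54.3, 65.1 and 52.1 CPM in WT and at 51.7, 56.0, 53.6 and 42.3 CPM in 1b+/- mice, with a log2 fold change of -0.17 (SE 0.104, edgeR adjusted p = 0.584). All 4 libraries of the homozygous round were below all 7 of the heterozygous round, a gap between rounds that exceeded any gap between genotypes and that cannot be told apart from read type. Sox4 (chr13:29040788-29045582, minus strand, in mm9) differed little between genotypes. It stood at 25.3 and 22.5 CPM in the WT and at 25.4 and 25.5 CPM in the 1b-/- mice of the homozygous round, with a log2 fold change of 0.09 (SE 0.141, 95% interval -0.27 to 0.45; edgeR adjusted p = 0.721). Heterozygous-round levels lay between 30.0 and 32.6 CPM in WT and between 30.3 and 35.2 CPM in 1b+/- mice, with a log2 fold change of 0.06 (SE 0.0648, 95% interval -0.09 to 0.20; edgeR adjusted p = 0.779).

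Of the stem cell genes, Sox2 encodes the factor that keeps neural stem cells undifferentiated (chr3:34548927-34551383, plus strand, in mm9). It stood at 57.5 and 60.7 CPM in the homozygous-round WT mice and at 53.7 and 47.6 CPM in the 1b-/- mice. Both 1b-/- values were below both WT values, with a log2 fold change of -0.22 (SE 0.128, 95% interval -0.55 to 0.10; edgeR adjusted p = 0.323). Heterozygous-round Sox2 ran at 44.1, 47.5 and 48.7 CPM in WT and at 42.9, 47.5, 51.3 and 49.4 CPM in 1b+/- mice, with a log2 fold change of 0.03 (SE 0.0655, 95% interval -0.12 to 0.18; edgeR adjusted p = 0.894). Sox2 lies inside the non-coding gene Sox2ot on the same strand, so reads at this position can belong to either.

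Nes encodes nestin, the intermediate filament protein of neural stem cells, which is also made by vessel cells (chr3:87775000-87784373, plus strand, in mm9). It stood at 25.1 and 13.9 CPM in the homozygous-round WT mice and at 8.29 and 11.5 CPM in the 1b-/- mice. The genotypes did not overlap, but the 2 WT mice were farther apart than WT replicate 2 was from either 1b-/- mouse. This gave a log2 fold change of -0.98 (SE 0.338, 95% interval -1.83 to -0.12), that is 1.97-fold lower, with an edgeR adjusted p of 0.154. The summed level of 7 endothelial markers was lower in the same mice, at 149.8 to 173.8 CPM in 1b-/- against 196.5 to 252.9 CPM in WT, and its part in the Nes value was not tested. Heterozygous-round Nes ran at 14.9, 14.8 and 14.2 CPM in WT and at 12.8, 16.3, 14.9 and 11.7 CPM in 1b+/- mice. The 1b+/- mice spread to both sides of WT, with a log2 fold change of -0.07 (SE 0.109, edgeR adjusted p = 0.834).

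The proliferation genes Mki67 and Top2a were high or low together from library to library. Mki67 encodes Ki-67, present in all cycling cells and absent from resting ones (chr7:142881471-142908062, minus strand, in mm9). It stood at 9.16 and 9.50 CPM in the homozygous-round WT mice and at 3.95 and 7.14 CPM in the 1b-/- mice. Both 1b-/- values were below both WT values, and the log2 fold change was -0.75 (SE 0.325, 95% interval -1.57 to 0.07; edgeR adjusted p = 0.217). In the heterozygous round Mki67 ran at 5.87, 6.14 and 4.19 CPM in WT and at 6.89, 7.26, 7.28 and 7.002 CPM in 1b+/- mice. All 4 of the 1b+/- values were above all 3 WT values, and the 1b+/- mice were closely alike (7.11 ± 0.195 CPM, SD, n = 4) where the WT mice were not (5.40 ± 1.06 CPM, SD, n = 3). Its log2 fold change was 0.39 (SE 0.133, 95% interval 0.09 to 0.69), with an edgeR adjusted p of 0.329 over all genes. The exact two-sided permutation p of 0.0286, unadjusted for the 10 genes, was the smallest that 4 libraries against 3 can give.

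Top2a encodes the topoisomerase that untangles sister chromosomes before mitosis (chr11:98854257-98885503, minus strand, in mm9). It stood at 8.08 and 8.80 CPM in the homozygous-round WT mice and at 3.66 and 5.64 CPM in the 1b-/- mice, without overlap. Its log2 fold change was -0.86 (SE 0.282, 95% interval -1.57 to -0.15), that is 1.82-fold lower, with an edgeR adjusted p of 0.140. Heterozygous-round Top2a ran at 5.52, 6.03 and 3.92 CPM in WT and at 5.43, 6.38, 6.19 and 5.40 CPM in 1b+/- mice, which overlapped, with a log2 fold change of 0.18 (SE 0.152, edgeR adjusted p = 0.705). The number of Mki67 reads per Top2a read stayed between 1.02 and 1.30 in all 11 libraries. WT replicate 3 of the heterozygous round was the lowest of its group for both genes and for Igfbpl1, and 1b-/- replicate 1 was the lowest of its round for both.

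Eomes encodes the T-box factor of intermediate progenitors (chr9:118387330-118395250, plus strand, in mm9). It was the least expressed of the 10 in the heterozygous round, with 19 to 67 reads a library. It stood at 0.948 and 5.85 CPM in the homozygous-round WT mice and at 2.75 and 9.59 CPM in the 1b-/- mice, so that each genotype held 1 low and 1 high library. The log2 fold change of 0.86 had an SE of 0.945 and a 95% interval of -1.53 to 3.25 (edgeR adjusted p = 0.599), and it became -0.30 without 1b-/- replicate 2 and 0.08 without WT replicate 1. In this round the 2 libraries with the higher Eomes were the 2 with the higher choroid plexus sums (3427 and 13670 CPM), and the part of choroid plexus tissue in this value was not tested. Heterozygous-round Eomes ran at 0.990, 1.497 and 0.837 CPM in WT and at 1.93, 1.32, 1.17 and 2.33 CPM in 1b+/- mice. There 2 of the 4 values in 1b+/- mice were above the WT range, with a log2 fold change of 0.60 (SE 0.308, 95% interval -0.09 to 1.30; edgeR adjusted p = 0.495). The highest Eomes of this round was in 1b+/- replicate 4, with a choroid plexus sum of 2175 CPM. Replicate 1 of the 1b+/- mice, with a sum of 61.47 CPM, had the second highest. Replicate 3, with the highest sum (2664 CPM), had Eomes at 1.17 CPM, and the part of choroid plexus tissue was not tested here either.

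**Figure D3:**
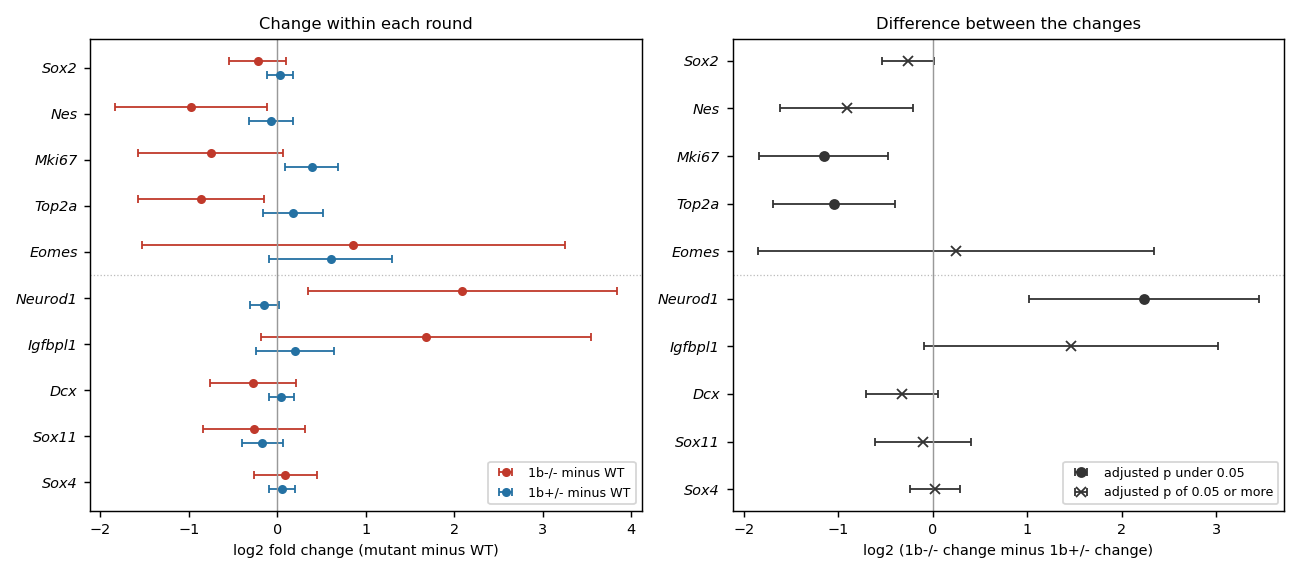
Left, log2 fold change of each gene in 1b-/- mice (red) and 1b+/- mice (blue) against the WT mice of the same round; right, the difference between these changes; bars are 95% intervals. The intervals of the difference for Mki67 (-1.84 to -0.47), Top2a (-1.69 to -0.40) and Neurod1 (1.01 to 3.46) exclude 0 with an adjusted p under 0.05, drawn as filled points.

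Whether the 2 genotypes differed in their effect was asked with a contrast of the change in 1b-/- mice minus the change in 1b+/- mice over all 11 libraries, each change taken within its round. Of 14905 genes tested, 27.3% passed this contrast, and 3 of the 10 genes did. The log2 fold change of Neurod1 was 2.09 in 1b-/- and -0.15 in 1b+/- mice, a fitted difference of 2.23 (SE 0.552, edgeR adjusted p = 0.0141). That of Mki67 was -0.75 and 0.39, a fitted difference of -1.16 (SE 0.309, edgeR adjusted p = 0.0201). That of Top2a was -0.86 and 0.18, a fitted difference of -1.05 (SE 0.291, edgeR adjusted p = 0.0235). Nes, with a difference of -0.91 (SE 0.318), had an edgeR adjusted p of 0.0558, and the other 6 had an adjusted p of 0.144 or more. This contrast takes 1 spread for each gene from all 11 libraries, so the 7 of the heterozygous round also set the SE of the 1b-/- change. For Neurod1 the SE of 0.552 was below the 0.691 of its 1b-/- change fitted within the round (edgeR adjusted p = 0.143). The contrast contains both WT groups, and for all 3 genes the homozygous-round WT mice lay outside the range of the 9 other libraries, low for Neurod1 and high for Mki67 and Top2a. With sex as a covariate only Neurod1 passed (2.24, edgeR adjusted p = 0.0345). Top2a also lost its call without WT replicate 2 of the homozygous round (-0.99, edgeR adjusted p = 0.055) and without 1b-/- replicate 1 (-0.78, edgeR adjusted p = 0.0672).

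Set against each other, the neuroblast and progenitor genes differed between genotypes in opposite senses in the 2 rounds. In the heterozygous round the size of this difference depended on where Eomes was placed. In the homozygous round it is taken against the WT mice with the high striatal markers, whose part in it was not tested. The mean log2 CPM of the 5 neuroblast genes minus that of the 5 progenitor genes, a description that takes no test, was 0.12 and 0.24 in the homozygous-round WT mice and 1.21 and 1.16 in the 1b-/- mice. The difference of 1.003 between these means was made up of a neuroblast mean higher by 0.65 and a progenitor mean lower by 0.35 in 1b-/- mice. The higher neuroblast mean came from Neurod1 and Igfbpl1, the latter high in 1 library, as Dcx and Sox11 were lower and Sox4 differed by 0.09. The summed CPM of the 5 neuroblast genes overlapped between the genotypes, at 97.88 and 132 in 1b-/- and 85.71 and 99.31 in WT mice. The same value in the heterozygous round was 1.58, 1.61 and 1.72 in WT and 1.51, 1.41, 1.44 and 1.32 in 1b+/- mice. All 4 of the 1b+/- mice were below the WT mice, by 0.22 between the means, with a progenitor mean higher by 0.22 and a neuroblast mean higher by 0.01 in 1b+/- mice. Both 1b-/- mice lay below all 7 libraries of the heterozygous round, and the homozygous-round WT mice lay far below that. Eomes was placed with the progenitors, and with Eomes among the neuroblast genes the heterozygous difference was -0.04.

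**Figure D4:**
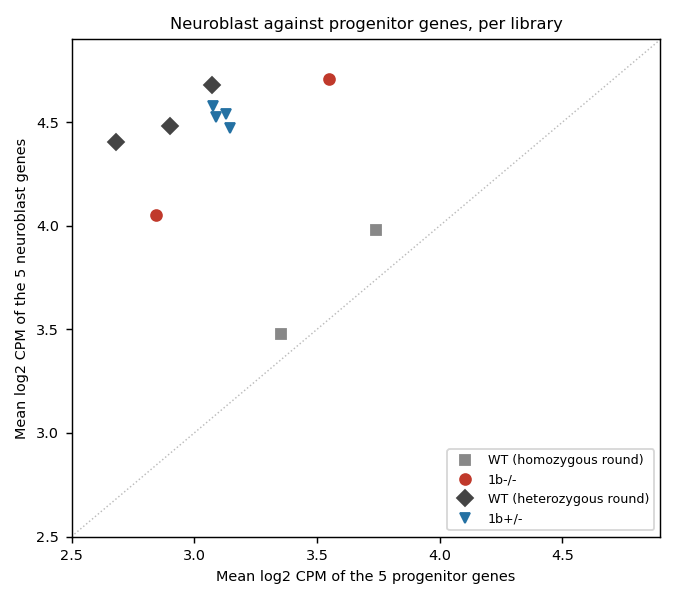
Mean log2 CPM of the 5 neuroblast genes against that of the 5 progenitor genes, 1 point a library, with the dotted line marking equal means. The WT libraries of the homozygous round lie near the line (0.12 and 0.24 above it), and the other 9 libraries lie 1.16 to 1.72 above it.

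Ratios of reads between genes within a library need no scaling between libraries. There were 0.0681 and 0.279 Neurod1 reads per Dcx read in the homozygous-round WT mice, 1.10 and 0.838 in the 1b-/- mice, 0.675 to 0.844 in the heterozygous-round WT mice and 0.613 to 0.706 in the 1b+/- mice. The WT mice of the homozygous round thus had the lowest Neurod1 for their Dcx, while their Dcx itself, at 31.8 and 39.1 CPM, was near the 34.4 to 39.8 CPM of the heterozygous round. For each Mki67 read there were 3.47 and 4.11 Dcx reads in these WT mice, 6.40 and 4.67 in the 1b-/- mice, 6.01 to 8.21 in the heterozygous-round WT mice and 4.80 to 5.78 in the 1b+/- mice. The 1b+/- mice had fewer Dcx reads per Mki67 read than each of their 3 WT mice, and the 1b-/- mice had more than each of theirs. These ratios are descriptions without a test.

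**Figure D5:**
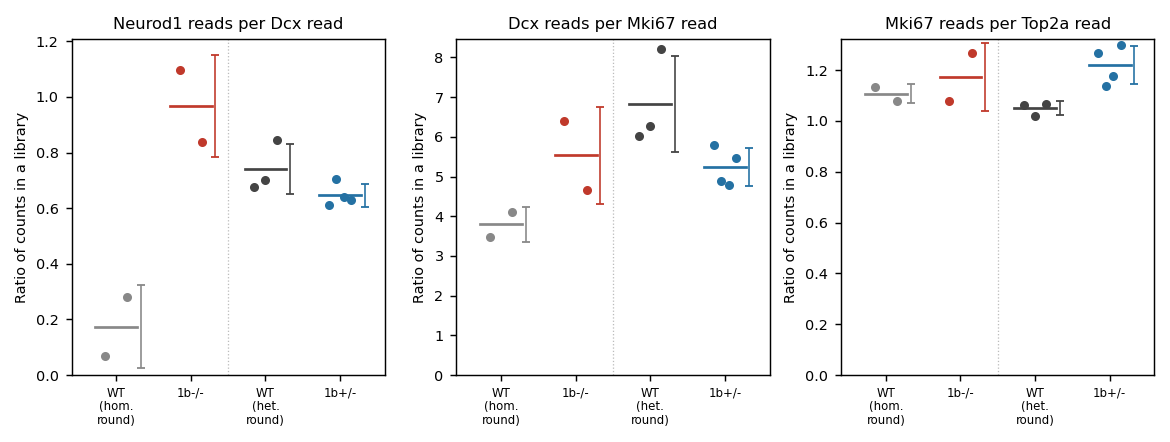
Ratio of reads between pairs of the genes in each library, with group means (lines) and 1 SD (bars); Neurod1 per Dcx on the left, Dcx per Mki67 in the middle, Mki67 per Top2a on the right. Neurod1 per Dcx is 0.279 or less in the WT libraries of the homozygous round and 0.613 or more in the other 9, whereas Mki67 per Top2a stays between 1.02 and 1.30 throughout.

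Levels can be set side by side between genes only per length of transcript. On the scale of CPM per kilobase of exon in the mm9 annotation (GENCODE M1), the heterozygous-round WT mice had Sox2 at 19.0 ± 0.979 (SD, n = 3), Neurod1 at 9.75 ± 0.953 and Sox4 at 6.58 ± 0.283. Dcx followed at 2.85 ± 0.171, Nes at 2.28 ± 0.0545 and Igfbpl1 at 1.16 ± 0.349. The proliferation genes Top2a and Mki67, at 0.568 ± 0.121 and 0.536 ± 0.105, overlapped over their libraries, and Eomes was lowest at 0.267 ± 0.0831. Sox11 depends on its gene model: it was at 28.4 ± 3.46 over the 2013 bases of this annotation and at 6.76 ± 0.825 over the 8451 bases of the RefSeq gene. In the 1b-/- mice Sox2 (20.6 ± 1.76, SD, n = 2) came first and Neurod1 (10.2 ± 0.0596) second. The libraries of Neurod1 overlapped those of Sox11, at 9.255 ± 2.557 over the 2013 bases. In the homozygous-round WT mice Neurod1 came below Sox2, Sox11, Sox4, Nes and Dcx, at 2.39 ± 2.26 (SD, n = 2), although its libraries overlapped those of Nes and Dcx. Over the RefSeq gene Sox11 was at 2.645 ± 0.0092 in these WT mice, between their Neurod1 values of 0.794 and 3.994. Neurod1 overlaps the model of Cerkl on the same strand, and how shared reads were assigned is not given in the sources used here.

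Other genes of the same stages were taken from lists written for their known roles, with earlier results of these data known. The shares and medians of a list, set beside those of all genes, are thus descriptions and not tests. Of 19 further cell cycle genes, none passed the test in either genotype. In 1b-/- mice 13 were lower and 6 higher (median log2 fold change -0.174; 0 called, and 2 with an unadjusted p under 0.05, where 3922 of all 14838 genes had one), and in 1b+/- mice 3 were lower and 13 higher of 16 tested (median 0.0428; 2 with an unadjusted p under 0.05, 0 called). The smallest p in 1b-/- mice belonged to Mcm6, part of the replication helicase, which was higher, opposite to Mki67, at 13.9 and 14.3 CPM against 7.81 and 9.40 CPM in WT (log2 fold change 0.71, SE 0.182, edgeR adjusted p = 0.0926). The smallest p in 1b+/- mice belonged to Cdk1, the mitotic kinase, at 0.911 ± 0.241 CPM (SD, n = 4) against 0.537 ± 0.0693 CPM (SD, n = 3), from 13 to 30 reads a library (log2 fold change 0.76, SE 0.296, edgeR adjusted p = 0.377).

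Of 11 further radial glia genes tested, 1 rose and 1 fell in 1b-/- mice, where 3.58% of all genes were called. Hopx, a homeodomain-only protein of quiescent stem cells, stood at 15.8 and 25.6 CPM in WT and at 92.5 and 66.7 CPM in 1b-/- mice (log2 fold change 1.94, SE 0.289, edgeR adjusted p = 0.0375). Prom1, which encodes the membrane protein prominin, stood at 24.2 and 29.1 CPM in WT and at 13.4 and 13.03 CPM in 1b-/- mice (log2 fold change -1.01, SE 0.167, edgeR adjusted p = 0.047). The 7 libraries of the heterozygous round ran from 50.2 to 59.4 CPM for Hopx, above both WT mice and below both 1b-/- mice of the homozygous round. Prom1 stood there at 20.9 ± 2.12 CPM (SD, n = 3) in WT and 23.0 ± 1.94 CPM (SD, n = 4) in 1b+/- mice. The part of the regional difference of the homozygous-round WT mice in the Hopx and Prom1 values was not tested. None of the 11 passed in 1b+/- mice, where 8 were higher and 3 lower and 2 had an unadjusted p under 0.05 (median log2 fold change 0.0673).

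Of 7 neuronal commitment genes tested, 4 rose and none fell in 1b-/- mice, where 3.58% of all genes were called, with a median log2 fold change of 1.79 against -0.00125 over all genes. Prox1, the factor that sets granule cell identity and stays on in mature granule cells, stood at 15.4 and 14.9 CPM in WT and at 49.1 and 56.0 CPM in 1b-/- mice (log2 fold change 1.79, SE 0.136, edgeR adjusted p = 0.0191). Neurod2, which is kept in mature glutamatergic neurons, stood at 45.7 and 70.3 CPM against 199 and 339 CPM (2.21, SE 0.336, edgeR adjusted p = 0.0385). Neurog2, a proneural factor of intermediate progenitors, stood at 0.361 and 0.328 CPM from 7 to 8 reads, against 2.16 and 3.603 CPM (3.05, SE 0.519, edgeR adjusted p = 0.0494). As with Neurod1, the homozygous-round WT mice were below the heterozygous round, where Prox1 ran from 41.4 to 68.4 CPM and Neurog2 from 1.06 to 2.28 CPM. Both 1b-/- mice were within that range for Prox1, and 1 was above it for Neurog2. For Neurod2 the heterozygous round ran from 129.9 to 152.6 CPM in WT and from 131.8 to 167.8 CPM in 1b+/- mice. Neurod6 ran there from 122.8 to 129.8 CPM in WT and from 144.3 to 181.9 CPM in 1b+/- mice, against 311.6 to 351.4 CPM in 1b-/- mice. Both 1b-/- mice were thus above the heterozygous round for Neurod2 and Neurod6. The rises of the called genes stood beside the dentate granule cell sum, which was 205.6 to 233.4 CPM in WT and 385.5 to 399.2 CPM in 1b-/- mice. They also stood beside the sum of 8 markers of CA1 and CA3 pyramidal cells, the other glutamatergic neurons of the hippocampus, which was 367.6 to 390.7 CPM in WT and 928.8 to 1128 CPM in 1b-/- mice, and their dependence on either was not tested. In 1b+/- mice all 7 were higher and none was called (median 0.105; 2 with an unadjusted p under 0.05), with the smallest p for Neurod6 (0.33, SE 0.0715, edgeR adjusted p = 0.157).

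Of 18 further immature neuron genes, 1 was called in 1b-/- mice, a share near the 3.58% of all genes, and 14 were higher, with a median log2 fold change of 0.491. Dpysl3, which encodes a cytoskeletal protein of growing axons, stood at 51.3 and 52.3 CPM in WT and at 90.6 and 98.5 CPM in 1b-/- mice (log2 fold change 0.87, SE 0.119, edgeR adjusted p = 0.0329). The homozygous-round WT mice were again the low ones, since Dpysl3 stood at 108 ± 8.77 CPM (SD, n = 3) in WT and 109 ± 3.27 CPM (SD, n = 4) in 1b+/- mice of the heterozygous round. Those WT mice are the ones with the striatal markers, whose part in this value was not tested. In 1b+/- mice 11 of the 18 were lower and 7 higher, none was called and 5 had an unadjusted p under 0.05. The smallest p there belonged to Marcksl1, a membrane and actin binding protein of growing neurites, at 122, 134 and 130 CPM in WT and at 102.5, 111, 108 and 96.4 CPM in 1b+/- mice. All 4 of the 1b+/- values were below the WT values (log2 fold change -0.30, SE 0.0565, edgeR adjusted p = 0.0978).

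Dlx and related genes mark the other adult neurogenic lineage, which runs from the subventricular zone to the olfactory bulb, and they also mark GABAergic neurons of the striatum and hippocampus. Of 12 tested, 3 fell and none rose in 1b-/- mice, where 3.58% of all genes were called, with a median log2 fold change of -0.953. Dlx6 stood at 19.4 and 12.7 CPM in WT and at 2.47 and 3.98 CPM in 1b-/- mice (log2 fold change -2.31, SE 0.343, edgeR adjusted p = 0.0372). Gad2, the GABA-synthesizing enzyme (-1.03, SE 0.157, edgeR adjusted p = 0.0386), and Meis2, a homeodomain factor of striatal and olfactory bulb neurons (-2.22, SE 0.348, edgeR adjusted p = 0.0416) fell with it. These lower levels stood beside the striatal sum of 3355 to 8206 CPM in WT and 242.8 to 334.3 CPM in 1b-/- mice, in which 9 of 12 markers were called lower and all 12 did not overlap, in a round where 59.7% of all genes did not, and their dependence on it was not tested. In 1b+/- mice none of 11 tested was called, 10 were lower, and the smallest p belonged to Gad2 (-0.28, SE 0.0677, edgeR adjusted p = 0.18). The striatal sum in that round was 235 to 408.9 CPM in WT and 192.7 to 238.9 CPM in 1b+/- mice. Of its 12 markers, 11 were lower in 1b+/- mice, with a median log2 fold change of -0.581. None of the 12 was called, and 6 had an unadjusted p under 0.05, beside 1649 of all 14630 genes. Its part in the values of that round was not tested.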

How the data were processed

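Read counts per gene symbol were deposited by the authors as 1 table for each sequencing round. Per the labels' processing notes the tools were STAR 2.7.2, featureCounts, FastQC and edgeR on build mm9, and the strand setting of the counting is not given in the sources used here. Totals were 20667122 to 36145161 counts a library. Of the rows of each table, 27 carried date-like symbols (0.3% to 0.372% of counts). They stayed in the tests within a round and were left out of the fits over all 11 libraries. Genes reaching 1 CPM in 1 or more libraries of a round were scaled by TMM and tested with edgeR 4.0.16 (R 4.3.3), quasi-likelihood, on genotype within a round, with p-values adjusted by Benjamini-Hochberg over every gene in the fit and a threshold of 0.05. The difference between the changes was fitted on the 23644 genes of both tables. Log2 CPM used a prior count of 2, and permutation tests used log2(CPM + 1). The steps were tested on simulated data. The 10 genes and all lists were chosen with earlier results of these data known. Every member is named, and from each stage list the called genes, at most the 3 with the smallest p, otherwise the 1 with the smallest p; of other cell types only sums and, for the striatal and dentate lists, the 2 genes most abundant over all libraries. One gene that the rule for stage lists names is not reported here. Alternatives were DESeq2 1.42.0, the likelihood ratio test, other scalings and filters, sex, 1 fit of all 11 libraries, and each mouse left out.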

Additional observations from a re-analysis of the deposited data

Results flagged for a closer look

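For 3 of the 10 genes the change in 1b-/- mice and the change in 1b+/- mice differed by a test of that difference (edgeR's quasi-likelihood test over all 11 libraries, Benjamini-Hochberg adjustment over 14905 genes). The difference was 2.23 on the log2 scale for Neurod1, which was higher in both 1b-/- mice than in their WT mice and overlapped WT in 1b+/- mice. It was -1.16 for Mki67, which was lower in both 1b-/- mice and higher in all 4 of the 1b+/- mice. It was -1.05 for Top2a, which was lower in both 1b-/- mice and overlapped WT in 1b+/- mice. Both WT groups, with their different read types, are inside this contrast, and its spread for each gene is taken from all 11 libraries together. For all 3 genes the homozygous-round WT mice, which carry the high striatal and cholinergic markers, lay outside the range of the other 9 libraries (Neurod1 at 2.17 and 10.9 CPM against 22.3 to 29.0 CPM), and 27.3% of all genes passed it.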

How the results depend on the processing

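In 1b-/- mice the number of all genes called moved from 531 to 1829 with the likelihood ratio test, 2111 with DESeq2, 1029 without a filter and 5541 with all 11 libraries in 1 fit, and ranged from 0 to 693 as each mouse was left out, with 0 without WT replicate 1 and 192 without WT replicate 2. Of the 10 members, 0 were called, against 1 with the likelihood ratio test (Neurod1). With sex as a covariate 1 was called (Igfbpl1, 2.42), where 722 of all genes were. As 1b-/- replicate 1 is the only male of its round, this amounts to leaving it out. With all 11 libraries in 1 fit 5 were called (Nes, Mki67, Top2a, Neurod1 and Igfbpl1). That fit takes 1 spread for each gene from both rounds. In 1b+/- mice the number of all genes called moved from 0 to 191 with the likelihood ratio test, 247 with DESeq2 and 44 without a filter, and ranged from 0 to 421 as each mouse was left out, with 421 without WT replicate 1 and 1 without 1b+/- replicate 3; no member was called in any of the 15 alternatives run. For the difference between the changes, the main fit called 4071 of all genes and 3 of the members. With sex as a covariate 1 member was called, where Mki67 and Top2a lost their calls. As each mouse of the heterozygous round was left out, 3 members were called. Neurod1 kept its call for this difference in all 18 alternatives. Each of these held at least 1 of the 2 WT libraries of the homozygous round, so none could test their part in the call. With Eomes among the neuroblast genes the neuroblast minus progenitor difference was 1.44 in 1b-/- and -0.0397 in 1b+/- mice.

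Some directions turned. With sex as a covariate the change of Nes in 1b+/- mice became 0.0018 and the difference for Sox4 became -0.045. As each mouse was left out, the change of Eomes in 1b-/- mice ranged from -0.30 to 2.697, that of Nes in 1b+/- mice from -0.16 to 0.00173 and that of Sox2 from -0.00977 to 0.0799, and the difference ranged from -0.90 to 2.07 for Eomes, -0.11 to 2.20 for Igfbpl1, -0.41 to 0.14 for Sox11 and -0.0608 to 0.11 for Sox4; the cause was not tested. No paired analysis was possible because the labels give no replicate numbers that the groups share. Eomes differed so much between mice of 1 genotype in the homozygous round that its 95% interval spans -1.53 to 3.25.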
